A study of Mus musculus with 12 samples.

Results

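The genes described here are 8 long non-coding RNA genes of the mouse: Malat1 and Neat1, whose RNAs stay in the nucleus, and Gas5, Snhg3, Snhg5, Snhg8, Snhg14 and Snhg15, which carry small nucleolar RNAs (snoRNAs). They were chosen by name among the genes that the deposited lists hold, so their presence on the lists is the rule by which they were found and is no result. By that rule 36 of the 2432 transcripts on the list of promoter-associated non-coding RNAs belonged to 7 of the 8 genes, and 4 of the 4286 ChIRP-seq peaks had Malat1 or Neat1 as their nearest gene. All values are for MLE-12, an established mouse cell line of distal lung epithelium. The series asked which nuclear RNAs and which stretches of chromatin are in contact with the microRNA Mirlet7d (let-7d).

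In the Mirlet7d pull-down, cells were transfected with 25 nM of a biotinylated Mirlet7d oligonucleotide, harvested after 48 h, and the RNA held by streptavidin beads was sequenced. The pull-down input is the library labelled as the input of that capture, from the same cell line and given with the same 25 nM and 48 h. In ChIRP-seq, chromatin was incubated with 150 pmol of biotinylated tiling probes against mature Mirlet7d, and the captured DNA was sequenced and searched for peaks. Each of these groups is 1 library, so replicate error could not be estimated and no test was made. A capture with another microRNA or with unrelated probes was not analysed here. The intervals given are 95% exact (Clopper-Pearson) intervals on recovered read pairs, and they cover counting error only.

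Malat1 is among the most abundant nuclear RNAs of mammalian cells and gathers in splicing-factor speckles, while the long isoform of Neat1 is the scaffold around which paraspeckles form. Both genes are neighbours and are transcribed in the same direction. The other genes are snoRNA host genes: the snoRNAs lie in their introns and are trimmed out of the spliced-out intron, after which they guide chemical modification of ribosomal and other RNAs. The host's spliced exons have little coding capacity, and those of several hosts are degraded quickly in the cytoplasm.

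The captured molecule is shown first because both assays rest on it. The labels call it mature Mirlet7d without naming the arm, so both arms are given from RefSeq (GRCm38.p6, chromosome 13, minus strand), with the seed, bases 2 to 8, in capitals.
mmu-let-7d-5p: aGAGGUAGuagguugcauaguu
mmu-let-7d-3p: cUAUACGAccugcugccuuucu
The 5p arm carries the let-7 family seed, which 9 mature names in the RefSeq table share.

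The starts of 5 of the genes are shown next, because the pulled-down transcripts were listed for lying at promoters. Each line holds the 50 bases before and the 50 bases from the RefSeq start on (GRCm38.p6), and the capitals mark TATAAA and TGACGTCA. For Gas5, for which RefSeq gives 2 starts, it is the downstream one, at chr1:161035116-161035215 on the plus strand. The others are on the minus strand, Malat1 at chr19:5802623-5802722, Snhg3 at chr4:132353637-132353736, Snhg5 at chr9:88522848-88522947 and Snhg8 at chr3:123508287-123508386.
Malat1: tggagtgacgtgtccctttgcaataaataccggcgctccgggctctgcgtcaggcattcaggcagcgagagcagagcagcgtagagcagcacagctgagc
Gas5: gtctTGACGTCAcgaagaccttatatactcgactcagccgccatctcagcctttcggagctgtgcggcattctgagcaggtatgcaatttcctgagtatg
Snhg3: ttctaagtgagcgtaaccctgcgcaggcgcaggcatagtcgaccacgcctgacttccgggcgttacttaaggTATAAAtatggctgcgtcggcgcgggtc
Snhg5: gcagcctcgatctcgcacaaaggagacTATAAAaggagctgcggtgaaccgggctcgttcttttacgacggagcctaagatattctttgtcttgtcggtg
Snhg8: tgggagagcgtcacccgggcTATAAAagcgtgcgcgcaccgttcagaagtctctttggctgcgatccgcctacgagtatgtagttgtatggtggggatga
RefSeq start windows of 300 bases (250 before and 50 from the start on) were found for 7 of the 8 genes, 8 windows in all, and Neat1 had none. The letters TATAAA, the core of a TATA box, were read on either strand in the windows of Snhg3, Snhg5 and Snhg8, and in 13.6% of all 32851 windows. They began 23 bases before the start in Snhg5, 30 bases before it in Snhg8, and at base 23 after the start in Snhg3. The palindrome TGACGTCA, known as the cyclic AMP response element, began 46 bases before the downstream Gas5 start and 88 bases before the Snhg15 start, and is in 1.79% of all windows. The downstream Gas5 start and the Snhg8 start opened with 5 and 6 pyrimidines, and 4.44% of all windows open with a run of at least 5. Such a run is the mark of a class of growth-regulated mRNAs, to which Gas5 is known to belong. The DNA match to the 5p seed, CTACCTC on either strand, was in none of the 8 windows and in 3.85% of all windows. These matches describe letters and say nothing of a factor or of Mirlet7d at these starts.

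Of the 8 genes, 7 had at least 1 promoter-associated non-coding RNA among the pulled-down candidates, against 6.19% of all 26220 genes with a curated RefSeq transcript. Neat1 was the gene without one. The rule took the genes from that list, so nothing follows from the count. The list holds transcripts whose deposited fold, the pull-down RPKM (reads scaled to transcript length and library size) over the input RPKM, was at least 2.5, and values for transcripts under that fold were not analysed here. Just inside that limit, the lowest member was a Gas5 transcript at 2.69. Snhg15 and Snhg14 stand in the list under the older names Gm11974 and C230091D08Rik, and were matched through the RefSeq gene table.

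Across the 36 member transcripts the median fold was 3.03, and it ran between 2.69 and 21.2. The 2396 other transcripts on the list had a median fold of 5.15. A fold of at least 5 was reached by 12 of the 36 member transcripts, against 51.1% of the 2432 transcripts on the list, and the 12 belong to Snhg5, Snhg8 and Snhg14. The members' median level was 153 RPKM in the pull-down and 55.2 RPKM in the input, against medians of 3.91 and 0.885 RPKM for the pull-down and input of the other transcripts. Gas5 alone supplies 20 of the 36 transcripts, and with Gas5 left out the 16 remaining transcripts had a median fold of 6.74 and median levels of 25.5 RPKM in the pull-down and 3.69 RPKM in the input. Where the input was at least 10 RPKM, the 22 transcripts of Malat1, Gas5 and Snhg3 had a median fold of 2.71, and the 76 other transcripts at that input level had a median fold of 3.06, with a range of 2.5 to 8.15. No member had an input of exactly 1 RPKM, a value that 457 of the other transcripts carry.

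**Figure D1:**
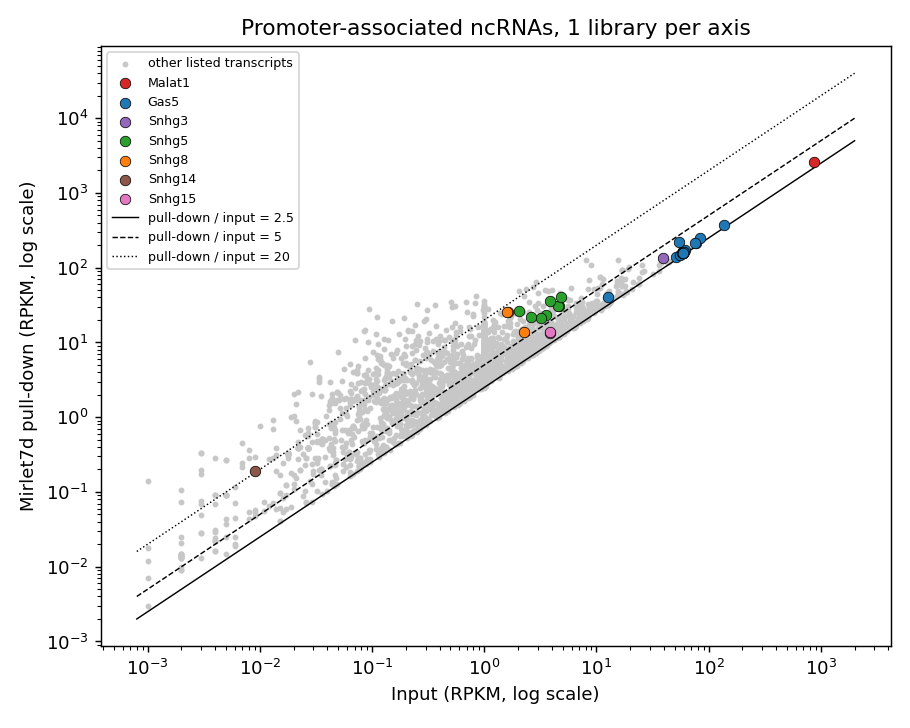
RPKM in the Mirlet7d pull-down (vertical, log scale) against RPKM in the input (horizontal, log scale) for every transcript on the promoter-associated list, with members coloured by gene and the others in grey. Malat1 lies at the far upper right and Gas5 and Snhg3 near the 2.5-fold line, while the Snhg5 and Snhg8 transcripts lie above the 5-fold line at inputs under 5 RPKM.

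Malat1 was the most abundant RNA of the list. Its 1 listed transcript, NONMMUT033623, had 2596 RPKM in the pull-down and 863 RPKM in the input, the highest value in both libraries of the list. The fold was 3.01 (interval 2.81 to 3.23), from 9248 reads in the pull-down and 1984 reads in the input. The transcript spans 238 bases, chr19:5802434-5802672 (mm9), and ends 1 base from the Malat1 start that the peak annotation gives, so its value speaks for the 5' end of a gene that RefSeq gives as 6983 bases long. No other pulled-down candidate lay within 50 kb of it.

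Gas5, a growth-arrest RNA that hosts a row of box C/D snoRNAs, had 20 listed transcripts in 1 locus, chr1:162964553-162968670 (mm9). Only Mir6390 with 61 and 4933440J02Rik with 21 had more. The 20 transcripts had 41.0 to 371 RPKM in the pull-down (median 160 RPKM) and 12.7 to 138 RPKM in the input (median 58.9 RPKM). Their folds lay between 2.69 and 4.05, with a median of 2.71. The pull-down and input ranges over the 20 overlapped. Each transcript was higher in the pull-down, which the 2.5-fold limit of the list requires. The 20 are overlapping spans that share their reads, with 15 distinct pairs of read numbers, so they are not 20 measurements.

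The read numbers behind the values gave a coarse view of where along Gas5 the reads lay. Transcripts whose spans were identical had identical values in all 2747 such pairs of the ncRNA list, and in none of 2693 pairs with one span inside another did the inner one have more reads. The numbers therefore follow the whole span, introns and snoRNAs included. Subtraction gives the reads counted for an outer span and not for an inner one, and these include reads that cross the inner edge. NONMMUT003413, from base 162965294, had 8095 pull-down and 1936 input reads, and NONMMUT003417, from base 162965297, had 8015 and 1907. So few bases cannot hold whole reads, so the values of a remainder are not strictly those of the bases named. Whether the counting used the strand is not given in the sources used here, so host, snoRNA and antisense reads cannot be told apart.

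The 5' stretch of Gas5, the 1457 bases of NONMMUT003422, had 222 RPKM in the pull-down and 54.9 RPKM in the input, a fold of 4.05 (3.63 to 4.51). The reads that NONMMUT003418 adds, over 433 bases, came to 356 RPKM in the pull-down and 178 RPKM in the input. Of those bases 427 are just downstream and 6 are at the start. Reads that cross either edge are among them, which raises both levels, and the fold was 1.99 (1.77 to 2.25). The reads added by the next 1483 bases, to the end of NONMMUT003419, came to 38.8 RPKM in the pull-down and 27.1 RPKM in the input. Their fold was 1.43 (1.21 to 1.71). The counting intervals of these 3 sets of reads did not overlap, and the fold was lower in each set than in the one before it. Within those 1483 bases the 816 bases of NONMMUT003436 had 41.0 RPKM in the pull-down and 12.7 RPKM in the input, a fold of 3.23 (2.38 to 4.48). Reads counted for NONMMUT003419 but not for NONMMUT003420 were 84 in the pull-down and 66 in the input, over 294 bases. Of those bases 293 are at the 3' end. The fold of these reads was 0.822 (0.508 to 1.34), below the limit of the list, and its interval included 1.

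**Figure D2:**
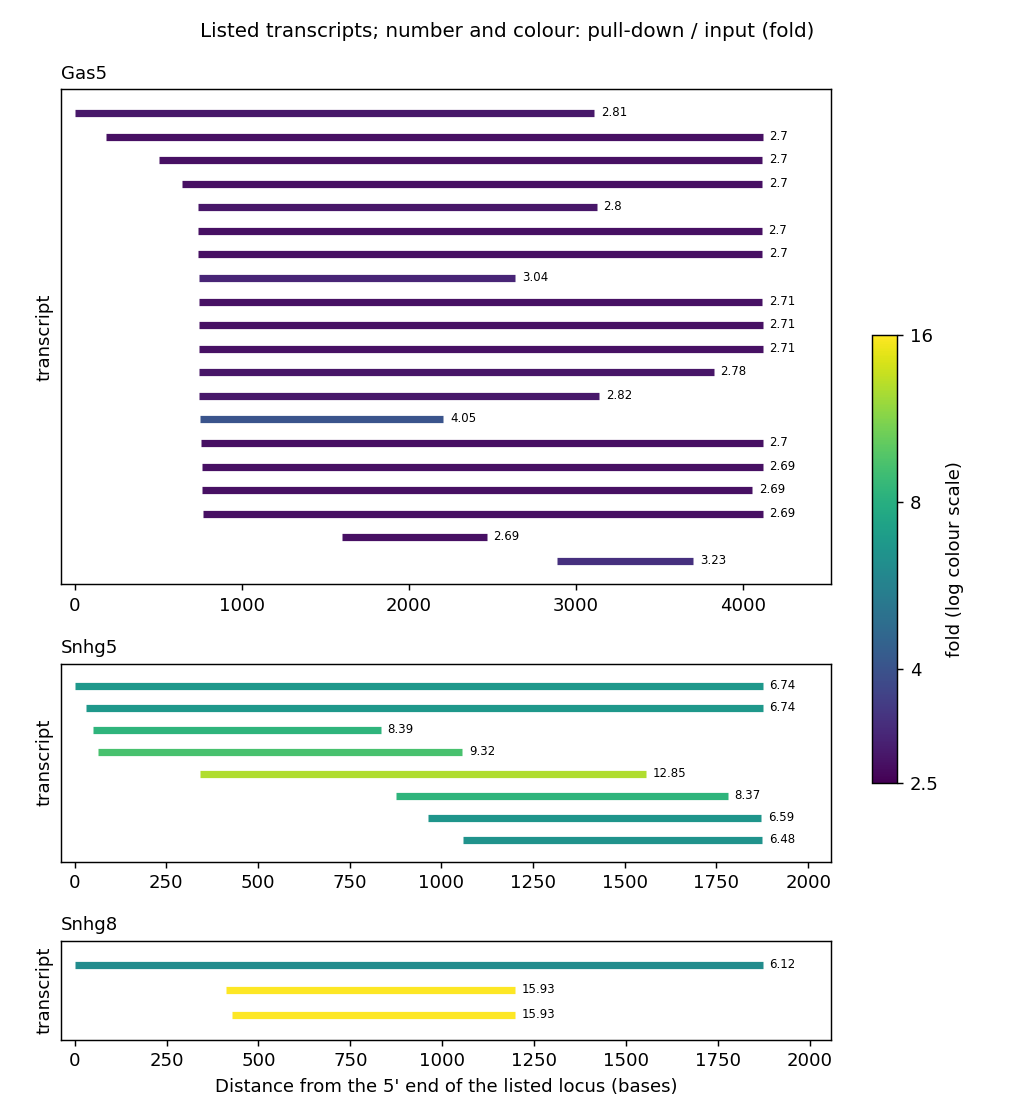
The listed transcripts of Gas5, Snhg5 and Snhg8, drawn by distance in bases from the 5' end of each locus in the direction of the RefSeq gene, with the fold printed and coloured on a log scale. The highest folds, 4.05 in Gas5, 12.9 in Snhg5 and 15.9 in Snhg8, belong to spans that cover part of the locus, against 2.70, 6.74 and 6.12 for the longest or near-longest spans, but the 868-base span of Gas5 and the 814-base span of Snhg5 have low folds of 2.69 and 6.48.

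RefSeq gives Gas5 a pair of starts 565 bases apart, and the starts of NONMMUT003410 and NONMMUT003422 are also 565 bases apart. The 558 bases of NONMMUT003410 outside NONMMUT003413, of which 556 are upstream, held 2 pull-down reads and 0 input reads. The reads thus began at the downstream start, the one printed above with TGACGTCA before it, and at this depth reads from the upstream start were not detectable in the input.

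Snhg3, the host of the box H/ACA snoRNA U17, had 1 listed transcript of 204 bases, NONMMUT049856, at chr4:131908690-131908894 (mm9), in a gene of 1754 bases. It had 136 RPKM in the pull-down and 39.1 RPKM in the input, a fold of 3.48 (2.44 to 4.98) from 415 pull-down reads and 77 input reads. Malat1, Gas5 and Snhg3 together hold 21 of the 33 transcripts on the list with at least 100 RPKM in the pull-down. All but 2 of the 21 are overlapping Gas5 spans that share reads. By gene, they are 3 of the 10 genes at that level. Snhg3 thus joined Malat1 and Gas5 in a high level and a modest fold.

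Snhg5, the host of the U50 snoRNAs, had 8 listed transcripts in 1 locus, chr9:88415891-88417767 (mm9). They had 21.0 to 40.9 RPKM in the pull-down and 2.05 to 4.88 RPKM in the input. Their folds ran between 6.48 and 12.9 with a median of 7.56. The 8 are overlapping spans that share reads, with 7 distinct pairs of read numbers, so they are not 8 measurements. The span of the whole locus, NONMMUT070334, had a fold of 6.74 (4.88 to 9.53). The middle 1215 bases, NONMMUT070338, had 26.3 RPKM in the pull-down and 2.04 RPKM in the input, a fold of 12.9 (7.22 to 25.2). The reads counted for NONMMUT070334 but not for the middle, over 661 bases on both sides, came to 38.2 RPKM in the pull-down and 9.08 RPKM in the input. Their fold was 4.21 (2.84 to 6.45). The counting intervals of the middle and the sides did not overlap. Both the pull-down and the input levels came out lower in the middle, but reads that cross its edges are counted for the sides. Split instead at the 993 bases of NONMMUT070342, the inner stretch had 35.9 RPKM in the pull-down and 3.86 RPKM in the input, a fold of 9.32 (5.70 to 15.3). The reads added by the 883 bases outside it came to 24.4 RPKM in the pull-down and 5.27 RPKM in the input, a fold of 4.62 (2.91 to 7.33). These intervals overlapped, and here the pull-down level was higher in the inner stretch.

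Snhg8, the host of Snora24, had 3 listed transcripts in 1 locus, chr3:123209796-123211667 (mm9). The 784 bases of NONMMUT045118, close to the 785 bases of the RefSeq gene, had 25.2 RPKM in the pull-down and 1.58 RPKM in the input, a fold of 15.9 (7.14 to 44.1) from 296 pull-down reads and 12 input reads. NONMMUT045117, which is 16 bases shorter, had the same read numbers. The reads counted for NONMMUT045116 but not for them, over 1087 bases, came to 5.72 RPKM in the pull-down and 2.76 RPKM in the input. Their fold was 2.07 (1.11 to 3.89), and 674 of the bases are on one side and 413 on the other. The pull-down reads of Snhg8 were thus densest over the gene itself. Whether the input was lower there cannot be told, because reads that cross the inner edges count for the remainder and the inner span held 12 input reads. The full span of 1871 bases, with 13.9 RPKM in the pull-down and 2.27 RPKM in the input, had a fold of 6.12 (3.81 to 9.90).

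Snhg15, the host of Snora9, had 2 listed transcripts that cover its 3170-base gene and share their reads, at chr11:6425594-6428763 and chr11:6425622-6428763 (mm9). They had 13.5 and 13.6 RPKM in the pull-down, and 3.82 and 3.86 RPKM in the input, and both had a fold of 3.54 (2.65 to 4.72) from 641 pull-down reads and 117 input reads. Its input was higher than that of every Snhg8 transcript, and its fold lay close to that of Snhg3.

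Snhg14 is the very long gene of the Prader-Willi and Angelman region, the host of the Snord115 and Snord116 clusters, whose far end runs antisense to Ube3a. Its 1 listed transcript, NONMMUT061432, spans 23830 bases at chr7:66575982-66599812 (mm9), of a gene that RefSeq gives as 1177441 bases. It had 0.191 RPKM in the pull-down and 0.009 RPKM in the input, from 68 and 2 reads. The fold of 21.2 is the highest among the members and the least certain, with an interval of 3.68 to 892.

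Across the genes the order of the highest folds was Snhg14, Snhg8, Snhg5, Gas5, Snhg15, Snhg3 and Malat1. That order takes the highest of 20 spans for Gas5. Its median fold of 2.71 was under the folds of Snhg15, Snhg3 and Malat1. The intervals of Snhg14, Snhg8 and Snhg5 overlapped. So did those of Gas5, Snhg15 and Snhg3, and those of Snhg15, Snhg3 and Malat1. Differences between genes were not tested. The wide Snhg14 interval also overlapped those of Gas5, Snhg15 and Snhg3. The 3 genes with every fold above 5 had inputs under 5 RPKM, and the 3 genes with inputs above 10 RPKM had no fold above 5. Snhg15 belongs to neither set: its inputs were under 5 RPKM and its fold was 3.54. The input is the divisor of the fold, and the whole list was alike in this. There 11 of the 98 transcripts with an input of at least 10 RPKM had a fold of at least 5, against 51.1% of all 2432.

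**Figure D3:**
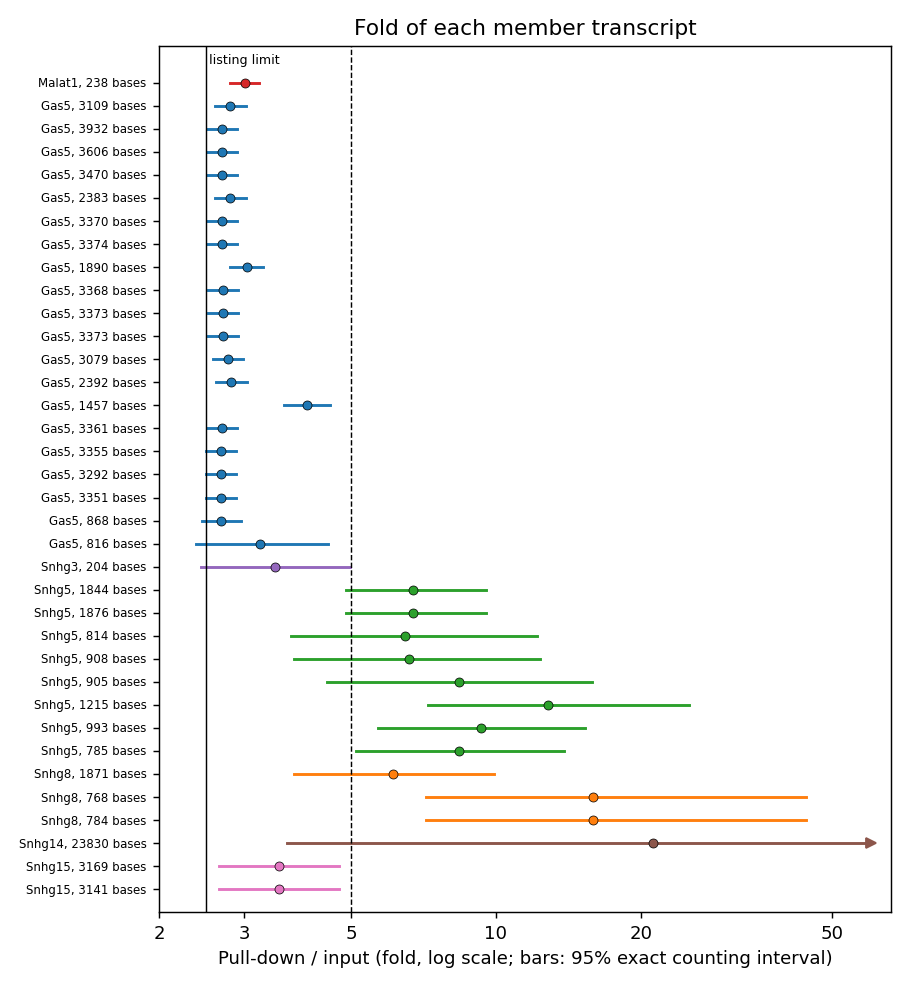
Fold (pull-down over input, log scale) of each of the 36 member transcripts with its 95% exact counting interval, labelled by gene and span length and coloured by gene. Gas5 folds crowd between 2.69 and 4.05 with narrow intervals, while the 12 transcripts of Snhg5, Snhg8 and Snhg14 lie at 6.12 or more with wide ones, and the interval of Snhg14 runs off the axis.

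In ChIRP-seq, 2 of the 8 genes were the nearest gene to a peak, against 12.1% of all 26220 genes. Malat1 had 1 peak and Neat1 had 3. The peak annotated to Malat1, chr19:5788650-5789420 (mm9), lay 13636 bases downstream of the gene's start, 6653 bases beyond the gene's RefSeq length, and on a B1 repeat, a short interspersed element. Its MACS score, the peak caller's own measure and the authors' value, was 34.2, with 49.2% of all peaks scoring lower. It is therefore a peak downstream of Malat1 and not on it.

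The Neat1 peaks lay on both sides of its start. Those at chr19:5827420-5828300 and chr19:5839370-5840328 lay 17618 and 5629 bases downstream of the start, within the 20773 bases that RefSeq gives the gene, though the deposited annotation calls both intergenic. Their scores were 33.4 and 33.7. The third, chr19:5851654-5852328, lay 6513 bases upstream, in exon 11 of 11 of the neighbouring gene Frmd8 (3' UTR), with a score of 31.9. All 4 scores of the Malat1 and Neat1 peaks were at or below the median of all peaks, 34.3, and the lowest score in the list was 30.0.

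The 4 peaks lay within 63.7 kb, and no other peak lay between them. That is 62.8 peaks per Mb, over a span that the peaks themselves bound, against 5.54 per Mb over chromosome 19. By a looser rule, at least 3 other peaks within 63.7 kb on either side, 19.9% of all peaks qualified, and 30.9% of those on chromosome 19. Groups of 4 peaks inside a single stretch of 63.7 kb were not counted over the list. In that span 1 pulled-down candidate was listed, the Malat1 transcript, 13.0 kb from the nearest peak.

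**Figure D4:**
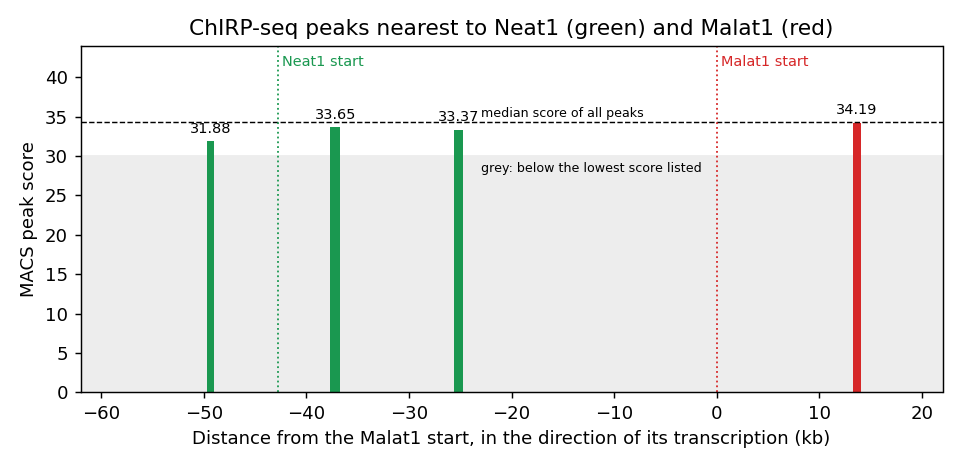
MACS score of the 4 ChIRP-seq peaks nearest to Neat1 and Malat1, by distance in kb from the Malat1 start in the direction of its transcription, with bars as wide as the peaks. The Neat1 start lies 42.8 kb upstream of the Malat1 start, 1 peak lies upstream of Neat1, 2 lie within its RefSeq length and 1 lies downstream of Malat1, and all 4 scores are at or below the median of all peaks.

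At the listed transcripts of the snoRNA hosts the peaks were farther off, with gaps measured from the span of those transcripts. The nearest peak lay 72.5 kb away for Gas5, 167 kb for Snhg3 and 266 kb for Snhg5. It lay 868 kb away for Snhg8, 122 kb for Snhg14 and 26.6 kb for Snhg15. The Snhg14 span is 23830 of the gene's 1177441 bases, so the gap to the gene itself can be smaller. Over all 1674 loci of the promoter-associated list the median gap was 124 kb, and 33.1% of loci had a peak within 50 kb, as Malat1 and Snhg15 did. Chromosomes differ in this: the median gap of the listed loci was 12.6 kb on chromosome 19, where Malat1 lies, 40.4 kb on chromosome 11, where Snhg15 lies, and 287 kb on chromosome 3, where Snhg8 lies. The peak nearest to the listed Snhg14 transcript was the one annotated to Ube3a, with a score of 33.7. The peak nearest to Gas5, annotated to Klhl20, had a score of 45.8.

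Other genes of the same kinds were counted from lists of genes by their known role. Of 22 non-coding snoRNA host genes, 7 had a promoter-associated transcript under their own or an older name (31.8%, against 6.19% of all genes), but 6 of the 7 are the members, and of the 16 other hosts only Epb41l4aos had one. Its 3 transcripts had 7.05 to 22.3 RPKM in the pull-down and 1.90 to 7.26 RPKM in the input, with folds of 3.07 to 3.83. Of the 22 hosts, 2 were the nearest gene to a peak (9.09%, against 12.1% of all genes): Snhg16, with a peak 61 bases upstream of its start and a score of 47.2, and Snhg20, with a peak 41451 bases upstream and a score of 31.9.

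Hosts also stand in the files under the names of the snoRNAs they carry. Snhg1, which carries Snord22, had 119 to 122 RPKM in the pull-down and 42.3 to 43.5 RPKM in the input over 3 such entries, all with a fold of 2.81, close to Gas5 and Snhg3. Snhg12 had 7 entries under Snora16a, with 11.7 to 14.0 RPKM in the pull-down, 2.97 to 4.01 RPKM in the input and folds of 3.15 to 4.10. They lie within 50 kb of the Snhg3 transcript. Snhg16 had 1 entry under Snord1b, with 27.3 RPKM in the pull-down and 10.9 RPKM in the input, a fold of 2.51. Snhg6 had 2 under Snord87: one had 14.5 RPKM in the pull-down and 0.086 RPKM in the input, which is 261 reads against 1 read and a fold of 169 (14.9 to 3365), and the other has an input of exactly 1 RPKM. With these names 11 of the 22 hosts had a promoter-associated transcript and 3 a nearest peak, the third being Snhg7, through a peak annotated to Snora17 with a score of 35.4. The shares over all genes were counted without such names, so these counts have no matching share.

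In a list of 30 long or structured non-coding RNA genes that includes Malat1 and Neat1, 4 (13.3%) had a promoter-associated transcript, against 6.19% of all genes, and 6 of the 30 were the nearest gene to a peak, against 12.1% of all genes. Without Malat1 and Neat1 these were 3 and 4 of 28 genes. Tug1 had 41.8 to 68.4 RPKM in the pull-down and 13.0 to 17.0 RPKM in the input over 3 transcripts, with folds of 3.21 to 4.03. Norad, a mainly cytoplasmic RNA that binds Pumilio proteins, had 5.24 to 21.2 RPKM in the pull-down and 1.68 to 6.95 RPKM in the input over 3 transcripts, with folds of 3.06 to 3.12. Pvt1 had 3.83 RPKM in the pull-down and an input of exactly 1 RPKM. None of these reached a fold of 5. Besides those of Malat1 and Neat1, the peaks were those of Kcnq1ot1, the imprinted antisense RNA, 107 bases upstream of its start with a score of 33.4, Jpx, 289 bases downstream with a score of 34.1, Terc, the telomerase RNA, 503 bases downstream with a score of 33.9, and Pvt1, 89122 bases downstream with a score of 32.9.

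By level in the 2 libraries, the 3 listed genes closest to Malat1 were Gas5, Mrpl33 and the entry Snord22, at distances of 3.86, 5.53 and 6.17 in log2 units (Euclidean, over log2 RPKM of pull-down and input). Malat1 thus had no close neighbour. The highest-fold Gas5 transcript lay closest to Mrpl33, Snhg3 and Snord22, at 0.51, 0.86 and 0.93.

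The recovered library totals behind the RPKM values were 15.0 M reads in the pull-down and 9.66 M reads in the input. Of 8 lung epithelial marker genes, 0 were on the list of pulled-down mRNAs and 4 were the nearest gene to a peak (Sftpb, Nkx2-1, Cdh1 and Krt18). Of the markers of other cell types, both mesenchymal genes (Col1a2 and Pdgfrb) and 1 of 2 endothelial genes (Kdr) were on the mRNA list, the endothelial gene Pecam1 was the nearest gene to a peak, and 1 of 2 immune genes had a promoter-associated transcript. The files are selected lists, so a missing marker says nothing of its level and the cell line's identity could not be checked from them.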

How the data were processed

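Per the file headers, the authors deposited RPKM of the pull-down and the input for each listed transcript and their ratio (fold), for NONCODE transcripts, and peaks with a MACS score and HOMER annotation with the distance to the nearest start site. Per the submitters' processing notes, the build is mm9 and the tools include Trimmomatic, Bowtie2, HOMER, MACS and bedtools. The settings are not given in the sources used here. The members and the lists were chosen with earlier results of these data known. The members were found by gene name, older symbols being matched through the RefSeq table. The named genes are all 8 members, every gene of the lists that a file holds, and the 3 genes closest in level to Malat1 and to Gas5.

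RPKM values were turned into whole reads: with totals of 15.0 M reads (pull-down) and 9.66 M reads (input), 100% of 4047 and 4387 values were within 0.15 reads of a whole number. Of the read numbers, 67.8% were even in the pull-down and 79.9% in the input, so intervals were computed on read pairs (reads divided by 2), which sets their width. The recovery and the intervals were tested on simulated data. Reads counted for an outer span and not for an inner one were obtained by subtraction, so they include reads that cross the inner edge. A read number rests on span and depth, so low inputs give wide intervals. Motifs were searched in RefSeq GRCm38.p6 windows, and mm9 coordinates were never converted. Alternatives were the highest, lowest or merged value of a gene, a stricter fold, score or distance, low inputs left out, 0.5 read pairs added, and single-read intervals. Python 3.11.15, pandas 2.3.3, numpy 2.4.6 and scipy 1.17.1 were used.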

Additional observations from a re-analysis of the deposited data

How the results depend on the processing

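With 1 library per group, the intervals cover counting error only and replicate error is unknown, and 2 to 12 input reads limit Snhg14 and the core of Snhg8. The lists hold only transcripts past the 2.5-fold limit, so a member under it would not appear. The members' median fold of 3.03 was 4.05 with the highest transcript of each gene, 3.54 with the lowest, 3.54 with 1 value for each merged locus, and, in an alternative chosen after seeing the data, 6.74 without Gas5. Of the 12 transcripts with a fold of at least 5, 5 had an interval wholly at or above 5. Counting only transcripts with a fold of at least 5 left 3 of the 7 members, 3 of the 7 hosts and 0 of the 4 long non-coding RNAs. Of the 2 members with a peak, 0 had one scoring at least 40 and 1 had one within 10 kb of its start, as did 1 of the 2 hosts and 4 of the 6 long non-coding RNAs. Over the whole list 51.1% of transcripts had a fold of at least 5. The other stricter counts have no matching share over all transcripts, genes or peaks. Counting snoRNA names for their host, also chosen after seeing the data, gave 11 hosts with a transcript and 3 with a peak. Using only current symbols (chosen after seeing the data) gave 5 members and a median fold of 2.82. In the other alternatives the median fold lay between 3.01 and 3.03 and the counts were the same. No paired analysis was possible because each group is 1 library.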

Other observations

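The proteins that work with these RNAs were looked up in the same files. Of 14 paraspeckle and splicing-speckle protein genes, 2 (14.3%) had a promoter-associated transcript, against 6.19% of all genes, and 1 (7.14%) was the nearest gene to a peak, against 12.1% of all genes. Srsf1, a splicing factor, had both: its 3 transcripts had 1.34 to 6.16 RPKM in the pull-down and 0.319 to 2.21 RPKM in the input, with folds of 2.78 to 4.20, and its 2 peaks scored 38.5 and 50.1, at 2011 and 6868 bases downstream of its start. Nono, a paraspeckle protein, had 5.74 RPKM in the pull-down and an input of exactly 1 RPKM.

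Of 12 genes for proteins of the snoRNA particles and their assembly, 2 (16.7%) had a promoter-associated transcript, against 6.19% of all genes, and 4 (33.3%) were the nearest gene to a peak, against 12.1% of all genes. Nhp2, a core protein of box H/ACA particles, had 20.8 RPKM in the pull-down and 2.07 RPKM in the input, a fold of 10.1 (7.13 to 14.3), and it was the 1 gene of these lists on the mRNA list, with a fold of 9.57. Nolc1, a chaperone of these particles, had a peak 200 bases upstream of its start with a score of 67.1. Nop56 had a peak 1894 bases upstream with a score of 47.4. Shq1 had peaks 3990 and 5672 bases upstream, and Naf1 had an intergenic one 83586 bases downstream of its start. Their scores were 30.1 to 30.4, close to the lowest in the list. Dkc1 had 2.63 RPKM in the pull-down and an input of exactly 1 RPKM.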
